A study of Homo sapiens with 6 samples.

Results

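The heat shock, HSP90 co-chaperone and chaperonin genes were a set of 39 listed genes for the proteins that fold other proteins in the cytosol, nucleus and mitochondria. The rule is a list of symbols drawn up with earlier results of these data known, with no threshold on a measured value, and all 39 were among the 20036 Ensembl identifiers of the deposited table. All 39 also had a mean of at least 1 FPKM (fragments scaled to gene length and library size) and so were among the 9868 genes tested. Expression was measured by RNA-seq of poly(A) RNA in MV411 cells, an established human line of acute monocytic leukaemia, a form of acute myeloid leukaemia. Wild-type MV411 cells, as the labels call their genotype, received either corilagin, a plant ellagitannin, or DMSO, and were collected at 48 h, with 3 libraries in each group. The sources used here do not give the dose. The labels do not say whether the replicates were separate cultures, and the p-values measure the spread between libraries, which may be technical. Every value below is from this one cell line at one time point.

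Newly made and damaged proteins are held by HSP70, which works with J-domain proteins that deliver clients and with exchange factors that release them. HSP90 receives part of these clients from HSP70 and finishes the folding of many kinases and receptors, helped by co-chaperones that bind it in turn. The CCT ring, also called TRiC, is a barrel of different subunits that encloses actin, tubulin and other proteins, and the HSP60 and HSP10 chaperonins do similar work in mitochondria. The transcription factor HSF1 raises many of these genes when proteins unfold. In leukaemia cells of this kind the mutant receptor kinase FLT3 is a well known HSP90 client.

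The libraries held 17776956 to 21640689 fragments, as read from the steps of the FPKM values, and the fewest fragments behind any value of a listed gene were 108 (HSPE1). All 11 markers of a myeloid leukaemia cell that were looked up, among them CD33, SPI1 and FLT3, had a mean of at least 1 FPKM. Their summed level was 639.8 to 645 FPKM after corilagin and 622 to 643 FPKM in DMSO. The sum hides opposite shifts of single markers. As deposited, FLT3 was higher after corilagin (log2 difference 0.53, limma adjusted p = 0.0273) and MPO lower (-0.81, adjusted p = 0.00967). None of 5 T-cell markers reached a mean of 1 FPKM, while 2 of 7 epithelial or fibroblast markers (KRT8 and KRT18) did. DMSO replicate 3 stood apart from DMSO replicates 1 and 2 along the GC content of the transcripts. In recovered fragments it was nearer to the corilagin libraries (chi-square per gene 23.6 to 27.02) than to DMSO replicates 1 and 2 (88.8 and 70.7), which differed from each other by 4.54. Across 9859 genes with a known GC content, DMSO replicate 3 minus the mean of the other DMSO libraries correlated with GC content at a Spearman rho of -0.843, a description over genes that share libraries. The part of this shift in the results was not tested. The counts over the 39 genes and over each of their groups are therefore given in 3 ways: over all 6 libraries as deposited, over all 6 with the GC trend of each library removed by a spline (the GC-adjusted fit), and for corilagin against DMSO replicate 3 alone. The last has 1 DMSO library, which is assumed to vary like the corilagin libraries. Removing the trend also removes any true difference that follows GC content.

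After 48 h of corilagin, every listed chaperone transcript that passed the test as deposited was lower. In the limma fit to the values as deposited, 16 of the 39 genes were lower at an adjusted p under 0.05, beside 13.5% of all genes tested, and none was higher, beside 11.9% of all genes. At an unadjusted p under 0.05 limma called 21 of the 39 genes in either direction, CCT8 among them, beside 45.2% of all genes. The test limma-voom on recovered fragments called 1 gene higher (CCT8) and 15 lower, beside 12.5% and 13.4% of all genes. The median log2 difference was -0.24 over the 39 genes and 0.035 over all genes tested. For 20 genes every corilagin library lay below every DMSO library, beside 23.3% of all genes, and for 1 gene (CCT8) every corilagin library lay above, beside 25.0%. By the ratio of mean FPKM, the steepest fall was that of the HSP90 co-chaperone FKBP4, to 0.366 of its DMSO level. On the same ratio came the mitochondrial HSP90 gene TRAP1 (0.490), the HSP70 gene HSPA1A (0.539), the HSP90 activator AHSA1 (0.550) and the mitochondrial co-chaperonin HSPE1 (0.579). In a bulk measurement, fewer cells that carry a transcript and less of it in each cell cannot be told apart.

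In the GC-adjusted fit, 27 of the 39 genes were lower (23.2% of all genes) and 1 was higher (21.8% of all genes). Against DMSO replicate 3 alone, 30 were lower (18.6% of all genes) and 1 higher (19.4% of all genes). All 16 genes lower as deposited were also lower in the GC-adjusted fit. The fits share libraries, so this overlap is not independent support. As deposited, the count of 16 depended on every library: it was 6 without corilagin replicate 1, 2 or 3 (of all genes 1.93%, 1.78% and 2.06% were lower). It was 10 without DMSO replicate 1 (4.89% of all genes) and 7 without DMSO replicate 2 (3.02% of all genes). None of the 39 was higher in these 5 fits, in the order given beside 1.33%, 1.33%, 1.53%, 3.74% and 2.26% of all genes. Without DMSO replicate 3 it was 24, with 9 genes higher (HSF2, HSP90AA1, HSPH1, DNAJA1, HSPA4, HSPA14, BAG2, CHORDC1 and CCT8; 36.5% and 40.8% of all genes). The 6 genes that were lower whichever library was left out were HSP90AB1, HSPA8, FKBP4, AHSA1, CCT3 and TRAP1. After GC adjustment, 25 of the 27 kept their call whichever library was left out. HSPH1 and DNAJA1 were the exceptions. With no filter on low values, which adds low genes to the fit, 13 of the 39 were lower (6.44% of all genes) and none higher (5.87% of all genes), and DNAJB1, TCP1 and CCT4 lost their calls.

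**Figure D1:**
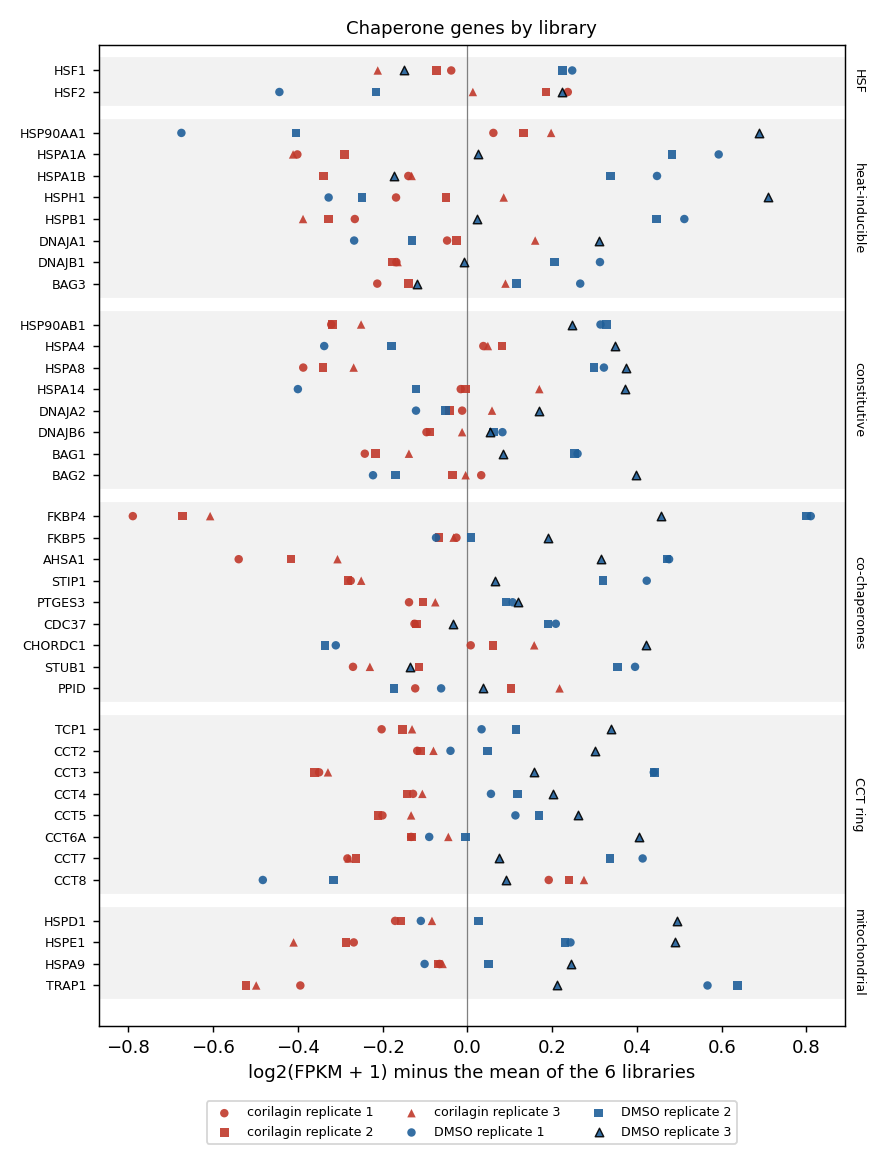
Each row is one of the 39 genes and each point one library, placed by log2(FPKM + 1) minus the gene's mean over the 6 libraries. Corilagin libraries are red, DMSO libraries blue, the marker shape gives the replicate, and DMSO replicate 3 has a black outline. For 20 genes all red points lie left of all blue points, and for CCT8 all lie to the right.

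**Figure D2:**
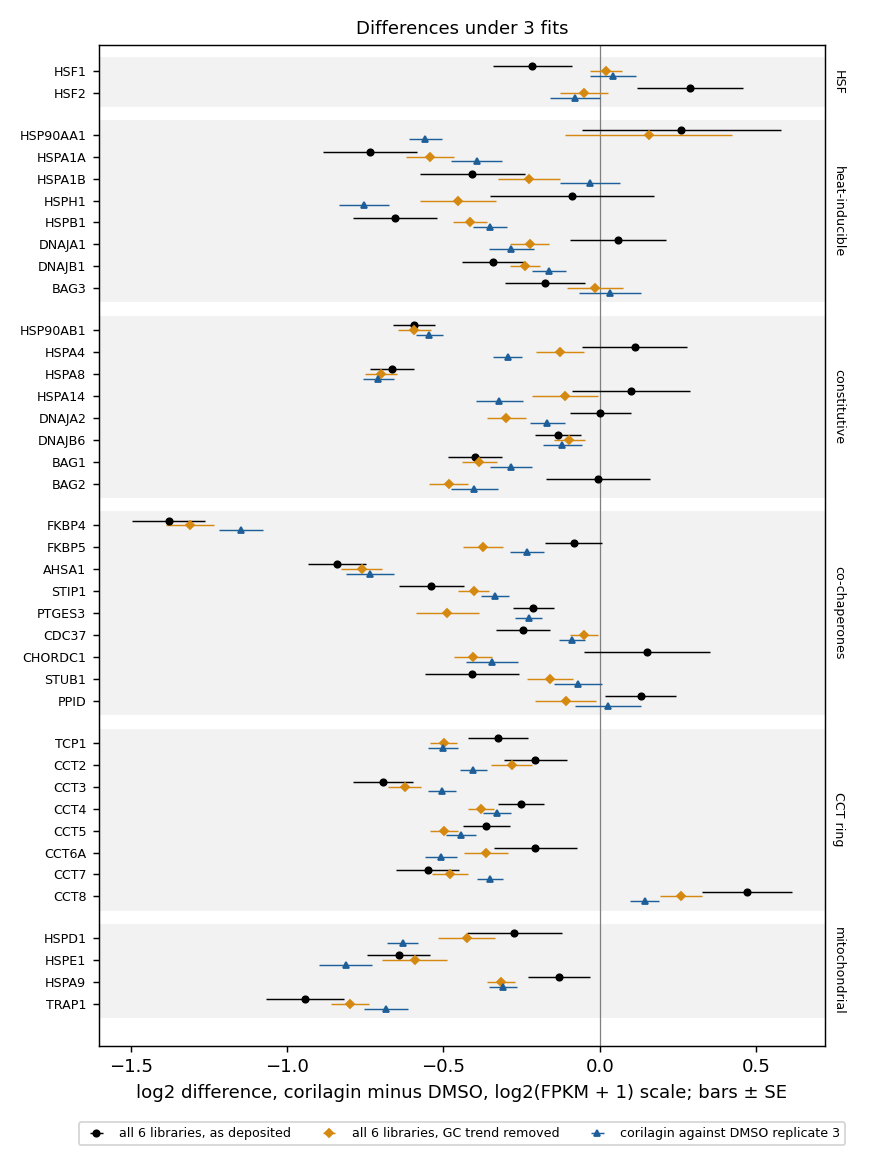
Log2 differences of corilagin minus DMSO on the log2(FPKM + 1) scale for the 39 genes, with bars of ± 1 SE from limma. Black circles use all 6 libraries as deposited, orange diamonds the GC-adjusted fit, and blue triangles corilagin against DMSO replicate 3 alone. FKBP4 lies farthest to the left in all 3, and CCT8 is right of 0 in all 3.

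The heat shock factors themselves did not pass in any of the 3 fits. HSF1 (ENSG00000185122, chromosome 8, 144291591 to 144314722, plus strand, GRCh38), the main stress-activated factor, was at 13.8, 13.4 and 12.1 in corilagin replicates 1, 2 and 3 and at 16.98, 16.7 and 12.7 FPKM in DMSO replicates 1, 2 and 3. DMSO replicate 3 lay among the corilagin libraries. The log2 difference was -0.21 (SE 0.125, limma adjusted p = 0.210) as deposited and 0.020 (adjusted p = 0.771) after GC adjustment. HSF2, a related factor that can pair with HSF1, was at 17.6, 16.9 and 14.9 under corilagin against 10.6, 12.6 and 17.4 FPKM in DMSO. Its sign also turned, from 0.29 (adjusted p = 0.211) to -0.051 (adjusted p = 0.616). Without DMSO replicate 3 both were called, HSF1 lower (-0.34, limma adjusted p = 0.000183) and HSF2 higher (0.47, adjusted p = 0.000169). The activity of HSF1 is set largely at the protein, which these data do not measure.

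Among the 8 heat-inducible chaperones that HSF1 drives, 3 were lower as deposited (HSPA1A, HSPB1 and DNAJB1), none was higher, and 5 did not pass. Of all genes tested, 13.5% were lower and 11.9% higher as deposited, and 23.2% were lower after GC adjustment. The share of all genes against DMSO replicate 3 alone, given above, applies to each group below as well. The group's median log2 difference was -0.26. In the GC-adjusted fit 5 were lower, HSPH1 and DNAJA1 being added, and the median was -0.23. Against DMSO replicate 3 alone, 6 were lower, with HSP90AA1 as the sixth (median -0.32).

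HSPA1A, the classic inducible HSP70, was at 3.92, 4.32 and 3.89 in the corilagin libraries and 8.80, 8.09 and 5.62 FPKM in the DMSO libraries, so the groups did not overlap. It fell to 0.539 of DMSO (log2 difference -0.73, SE 0.152, limma adjusted p = 0.0182). HSPA1B encodes nearly the same protein from a neighbouring gene on chromosome 6, so reads of the pair are hard to assign and both values are uncertain. Its values were 4.44, 3.74 and 4.47 under corilagin against 7.17, 6.57 and 4.31 FPKM in DMSO, where DMSO replicate 3 fell among the corilagin libraries (limma adjusted p = 0.104, and 0.0920 after GC adjustment). A processed transcript on the same strand shares 36.5% of the HSPA1B exon bases. HSPB1, the small heat shock protein HSP27, fell from 86.1 ± 15.1 to 53.8 ± 2.32 FPKM (SD, n = 3 per group; log2 difference -0.65, limma adjusted p = 0.0179). DNAJB1, the J-domain partner that activates HSP70 in disaggregation, was at 17.3, 17.2 and 17.4 under corilagin against 24.6, 22.8 and 19.5 FPKM in DMSO. Its groups were separate but DMSO replicate 3 was the closest DMSO library (log2 difference -0.34, limma adjusted p = 0.0445). As deposited, leaving out any single library but DMSO replicate 3 ended these 3 calls, with adjusted p of up to 0.0881 for HSPA1A, 0.0897 for HSPB1 and 0.156 for DNAJB1. DNAJB1 also lost its call with no filter on low values (adjusted p = 0.0608) and with equal FPKM sums (adjusted p = 0.0523). In the GC-adjusted fit the 3 log2 differences were -0.54, -0.41 and -0.24, and none of these calls was lost on leaving out a library.

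HSP90AA1, the stress-inducible cytosolic HSP90 (ENSG00000080824, chromosome 14, 102080738 to 102139699, minus strand), had the largest SE of the 39 genes as deposited. It was at 169, 178 and 186 after corilagin, a narrow range, and at 101.3, 122 and 262 FPKM in DMSO. The corilagin libraries thus lay above DMSO replicates 1 and 2 and below DMSO replicate 3. The difference was 0.26 as deposited (SE 0.319, limma adjusted p = 0.535), 0.16 after GC adjustment (SE 0.267, adjusted p = 0.651) and -0.56 against DMSO replicate 3 (adjusted p = 2.80e-05). Without DMSO replicate 3 it was called higher, both as deposited and after GC adjustment. The direction thus depended on which DMSO libraries were used, and the SE stayed large after GC adjustment. HSPH1, the HSP110 exchange factor of HSP70, had the same order of libraries, with 30.9, 33.7 and 37.1 under corilagin against 27.6, 29.2 and 57.7 FPKM in DMSO. Its log2 difference was -0.089 (adjusted p = 0.803) as deposited and -0.45 (adjusted p = 0.0179) after GC adjustment, the latter lost without corilagin replicate 1 or 2 (adjusted p up to 0.0702). DNAJA1, a J-domain protein that feeds clients to HSP70, was at 89.99 ± 7.34 (SD) under corilagin against 87.5 ± 19.3 FPKM in DMSO (adjusted p = 0.779). In the GC-adjusted fit it was lower (-0.22, adjusted p = 0.0205), a call lost without corilagin replicate 1 or 2 or DMSO replicate 2 (adjusted p up to 0.0883). BAG3, which links HSP70 to autophagy and is strongly heat-inducible, was at 10.6 ± 1.29 (SD) under corilagin against 12.1 ± 1.74 FPKM in DMSO (adjusted p = 0.310, and 0.894 after GC adjustment).

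HSF1 binds heat shock elements, repeats of the letters GAA in alternating orientation. The 250 bases before the RefSeq gene start (GRCh38.p14) were searched on both strands for 3 such units, GAA then TTC then GAA with 2 free bases (NN) between neighbours, or the reverse complement, TTC then GAA then TTC, and 6 of the 34 listed genes with an entry held them, against 0.557% of 27305 genes. For 2 units (GAA then TTC, or TTC then GAA, with the same spacing, which each 3-unit match also contains) it was 14 of 34, against 13.96% of genes. A gene with several starts was counted if any of them had a match. HSF1, HSPA14, FKBP4, STUB1 and CCT6A had no entry. Windows of 30 bases around the match nearest the start are shown for the 6 genes with 3 units, and around the 2-unit match of the HSPA1A and HSPA1B pair, because they let the reader set the known HSF1 letters beside genes that fell and genes that did not. Capitals mark the matched letters, overlapping matches together.
HSP90AA1 (chr14:102087112-102087141, minus strand): ggagggttcTTCCGGAAGGTTCgggaggct
HSP90AB1 (chr6:44247822-44247851, plus strand): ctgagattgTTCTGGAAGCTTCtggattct
HSPA8 (chr11:123062171-123062200, minus strand): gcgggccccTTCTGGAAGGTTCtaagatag
DNAJB6 (chr7:157336864-157336893, plus strand): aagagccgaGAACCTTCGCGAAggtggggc
CHORDC1 (chr11:90223084-90223113, minus strand): accgGAAAATTCGCGAAGGTTCCTGAAacg
HSPD1 (chr2:197500061-197500090, minus strand): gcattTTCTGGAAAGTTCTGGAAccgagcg
HSPA1A (chr6:31815426-31815455, plus strand): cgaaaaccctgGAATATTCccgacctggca
HSPA1B (chr6:31827622-31827651, plus strand): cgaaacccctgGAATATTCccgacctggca

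Of the 6 genes with 3 units, 2 were lower as deposited (HSP90AB1 and HSPA8) and 4 after GC adjustment (these with CHORDC1 and HSPD1). Of the 28 genes without them, 13 and 21 were lower. Over all genes tested, 13.5% were lower as deposited and 23.2% after GC adjustment. The 28 include heat-inducible genes that HSF1 drives: HSPA1A, HSPA1B, HSPH1, HSPB1, DNAJA1, DNAJB1 and BAG3. CHORDC1 had the longest run, 23 bases, and HSP90AA1 and DNAJB6 also held 3 units without passing in either fit with 6 libraries. A match is a description of the letters and does not show binding in these cells.

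Of the 8 constitutive HSP70, HSP90, J-domain and BAG genes, 3 were lower as deposited (HSP90AB1, HSPA8 and BAG1) and none higher, beside 13.5% and 11.9% of all genes. After GC adjustment 23.2% of all genes were lower. The median was -0.068, -0.34 after GC adjustment (5 lower) and -0.31 against DMSO replicate 3 alone (7 lower). HSP90AB1, the constitutive HSP90 (ENSG00000096384, chromosome 6, 44246166 to 44253888, plus strand), was the most abundant of the 39 genes per length. It was at 517, 518 and 543 under corilagin against 804, 812 and 768 FPKM in DMSO. The 3 DMSO libraries lay close together and far above the corilagin libraries. The fall to 0.662 of DMSO had a log2 difference of -0.59 (SE 0.0670, limma adjusted p = 0.00336) and of -0.59 after GC adjustment.

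HSPA8, the constitutive HSC70 that folds nascent chains and uncoats clathrin (ENSG00000109971, chromosome 11, 123057489 to 123063230, minus strand), was at 183, 189 and 199 under corilagin against 300.1, 295 and 311 FPKM in DMSO. It fell to 0.630 of DMSO, and the 3 fits gave -0.66 (SE 0.0702, limma adjusted p = 0.00287), -0.70 and -0.71. The transcripts of HSPA8 and HSP90AB1 have GC contents of 46.98% and 48.1%, near the median of 48.8% over all genes. BAG1, an exchange factor that couples HSP70 to the proteasome, fell from 12.5 ± 0.911 to 9.25 ± 0.389 FPKM (log2 difference -0.40, limma adjusted p = 0.0215). Leaving out any single library but DMSO replicate 3 ended this call as deposited (adjusted p up to 0.105), and no such fit ended it after GC adjustment. HSPA4, an HSP110-type exchange factor for HSP70, did not pass (adjusted p = 0.618). The FPKM ratio of HSPA8 to HSPA4 went from 6.87 ± 1.51 to 3.93 ± 0.172 (n = 3 per group, exact 2-sided permutation p = 0.1, the smallest that 3 against 3 allows).

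The other 5 constitutive genes did not pass as deposited. HSPA4 was at 48.4 ± 0.784 (SD) under corilagin against 45.7 ± 12.2 FPKM in DMSO, and HSPA14, a ribosome-associated HSP70, at 15.8 ± 1.23 (SD) under corilagin against 15.1 ± 4.45 FPKM in DMSO (adjusted p = 0.691). In both, DMSO replicate 3 was above and DMSO replicates 1 and 2 were below all corilagin libraries. Another entry named HSPA14 covers 17.4% of the HSPA14 exon bases on the same strand, so reads may be shared. DNAJA2, a J-domain protein, was at 23.9 ± 0.890 (SD) under corilagin against 23.9 ± 2.67 FPKM in DMSO (adjusted p = 0.984), and after GC adjustment it was lower (-0.30, adjusted p = 0.00572). BAG2, an inhibitor of the ubiquitin ligase STUB1, went from -0.0043 (adjusted p = 0.985) to -0.48 (adjusted p = 0.000698) after GC adjustment. It was at 4.70, 4.44 and 4.56 under corilagin against 3.78, 3.96 and 6.35 FPKM in DMSO, where DMSO replicate 3 was the highest of the 6 libraries. Its transcript has the second lowest GC content of the set (37.02%), and 42.7% of its exon bases overlap RAB23 on the opposite strand, whose reads cannot be told apart here. DNAJB6, which holds aggregation-prone proteins, was 12.99, 13.1 and 13.8 under corilagin against 14.8, 14.6 and 14.5 FPKM in DMSO, apart but close (log2 difference -0.13, adjusted p = 0.193).

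The 9 HSP90 co-chaperones differed among themselves. As deposited, FKBP4, AHSA1 and STIP1 were lower, none was higher and 6 did not pass, with a median of -0.24. The shares of all genes were 13.5% lower and 11.9% higher as deposited, and 23.2% lower after GC adjustment. After GC adjustment, FKBP5, PTGES3 and CHORDC1 were lower too (6 of 9, median -0.40), and the same count of 6 was lower against DMSO replicate 3 (median -0.23). CDC37, STUB1 and PPID did not pass in any of these 3 fits.

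FKBP4, or FKBP52, is a peptidyl-prolyl isomerase that docks on HSP90 and assists steroid receptors (ENSG00000004478, chromosome 12, 2794953 to 2805423, plus strand). It was at 12.8, 13.97 and 14.7 in corilagin replicates 1, 2 and 3 and at 40.8, 40.5 and 31.8 FPKM in DMSO replicates 1, 2 and 3, so the lowest DMSO library was still above the highest corilagin library. The log2 difference was -1.38 (SE 0.117, limma adjusted p = 0.00189), -1.31 after GC adjustment (adjusted p = 2.66e-05) and -1.15 against DMSO replicate 3. Its paralog FKBP5, or FKBP51, which lowers steroid receptor activity, was at 17.6, 17.1 and 17.5 under corilagin against 17.01, 18.1 and 20.6 FPKM in DMSO (log2 difference -0.083, adjusted p = 0.488). The FKBP5 transcript is GC-poor (41.5%), and after GC adjustment it was lower as well (-0.37, adjusted p = 0.00247), by less than FKBP4. The ratio of FKBP5 to FKBP4, both in FPKM, was 1.377, 1.22 and 1.20 in the corilagin libraries and 0.417, 0.446 and 0.650 in the DMSO libraries. FKBP4 was thus the more abundant per length in every DMSO library and FKBP5 in every corilagin library. The order of the libraries in this ratio was fixed by those values, so its exact 2-sided permutation p of 0.1 is no further test.

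AHSA1, or AHA1, the co-chaperone that speeds HSP90's ATP hydrolysis, was at 24.5, 26.8 and 28.96 under corilagin against 50.5, 50.3 and 45.1 FPKM in DMSO. It fell to 0.550 of DMSO (log2 difference -0.84, SE 0.0927, limma adjusted p = 0.00308; -0.76 after GC adjustment). STIP1, or HOP, the adaptor that joins HSP70 to HSP90, fell from 73.2 ± 9.23 to 49.8 ± 0.588 FPKM (log2 difference -0.54, limma adjusted p = 0.0147). The STIP1 call was lost without any one corilagin library or DMSO replicate 2 (adjusted p up to 0.0777). Both FKBP4 and AHSA1 were lower relative to HSP90AB1 in every corilagin library than in any DMSO library. The ratio of HSP90AB1 to FKBP4 was 21.3 ± 2.50 in DMSO and 38.2 ± 1.93 after corilagin, and that of HSP90AB1 to AHSA1 was 16.4 ± 0.597 and 19.7 ± 1.23 (n = 3 per group, exact 2-sided permutation p = 0.1 for each). HSP90AA1 to HSP90AB1 was 0.328, 0.344 and 0.343 in the corilagin libraries and 0.126, 0.151 and 0.341 in the DMSO libraries, so DMSO replicate 3 matched the corilagin libraries in that ratio (exact p = 0.200). In all, 12 such ratios and sums were computed, and since 0.1 is the smallest p that 3 against 3 allows, no Benjamini-Hochberg adjusted value can be lower.

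**Figure D3:**
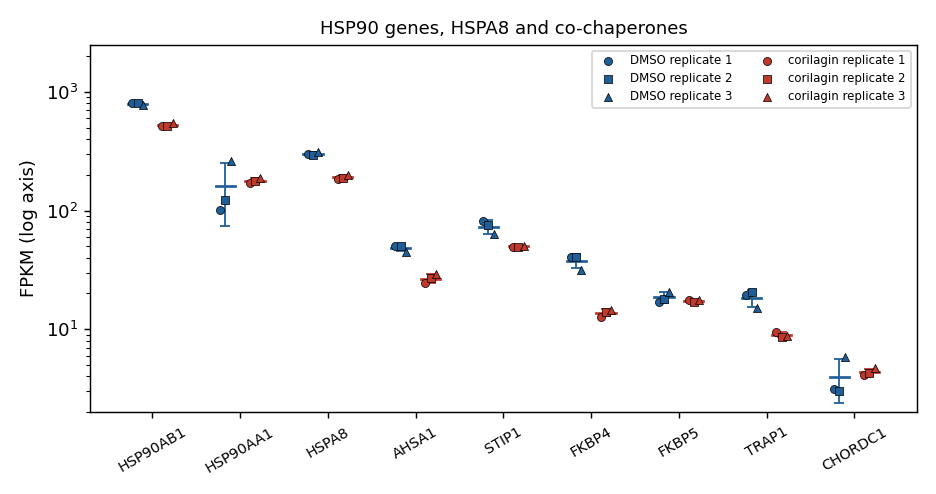
FPKM on a log axis for HSP90 genes, HSPA8, TRAP1 and 5 co-chaperones, with one point per library, a line at the group mean and bars of ± 1 SD (n = 3). Blue is DMSO, red is corilagin, and the marker shape gives the replicate. FKBP4, AHSA1, STIP1, HSP90AB1, HSPA8 and TRAP1 have separate groups, whereas DMSO replicate 3 lies above all other libraries for HSP90AA1, FKBP5 and CHORDC1.

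PTGES3, the p23 protein that holds HSP90 in its closed state, was at 154, 157 and 161 under corilagin against 182, 180.5 and 184 FPKM in DMSO. The groups were apart, with a small difference of -0.21 (limma adjusted p = 0.0522) as deposited and of -0.49 (adjusted p = 0.00586) after GC adjustment. CDC37, which loads kinases on HSP90, was at 97.04, 97.3 and 97.3 under corilagin against 122.5, 121 and 103 FPKM in DMSO (log2 difference -0.24, adjusted p = 0.0723). Here DMSO replicate 3 was near the corilagin libraries, and the GC-rich transcript (59.95%) had a difference of -0.049 after GC adjustment (adjusted p = 0.396). CHORDC1, or morgana, a co-chaperone with the lowest GC content of the set (34.6%), was at 4.12, 4.31 and 4.68 under corilagin against 3.11, 3.04 and 5.82 FPKM in DMSO. The sign of its difference turned from 0.15 (adjusted p = 0.572) to -0.41 (adjusted p = 0.00140). STUB1, the ligase CHIP that ubiquitinates chaperone clients, has the highest GC content of the set (65.8%) and 42.4% of its exon bases overlap JMJD8 on the opposite strand. It was at 8.07 ± 0.516 (SD) under corilagin against 11.2 ± 2.34 FPKM in DMSO (adjusted p = 0.0792), and PPID, the cyclophilin of HSP90, at 11.1 ± 1.42 (SD) under corilagin against 9.98 ± 0.802 FPKM in DMSO (adjusted p = 0.378), with 19.5% of its exon bases overlapping ETFDH on the opposite strand.

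In the CCT ring, 5 of 8 subunit genes were lower as deposited (CCT3, CCT7, CCT5, TCP1 and CCT4), none was higher and 3 did not pass. The median was -0.29. Among all genes, 13.5% were lower and 11.9% higher as deposited, and 23.2% and 21.8% after GC adjustment. After GC adjustment, and also against DMSO replicate 3 alone, 7 were lower and CCT8 was higher (medians -0.43 and -0.42). The protein ring holds one copy of each subunit per layer. The 8 transcripts summed to 637, 644 and 660.3 in the corilagin libraries and 739, 762 and 808 in the DMSO libraries (FPKM), with every corilagin library below every DMSO library.

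CCT3 (ENSG00000163468, chromosome 1, 156308968 to 156367873, minus strand) had the largest fall of the 8 as deposited. It was at 73.5, 72.9 and 74.6 under corilagin against 128, 128 and 105 FPKM in DMSO, with a log2 difference of -0.69 (SE 0.0958, limma adjusted p = 0.00609). CCT7 fell from 139.6 ± 16.8 to 94.5 ± 0.734 FPKM (-0.55, limma adjusted p = 0.0129). These are the GC-rich subunits (51.2% and 51.3%), with differences of -0.62 and -0.48 after GC adjustment. CCT5 was at 69.4, 68.9 and 72.7 under corilagin against 86.4, 89.9 and 95.9 FPKM in DMSO (-0.36, limma adjusted p = 0.0182), and TCP1 and CCT4 fell to 0.793 and 0.838 of DMSO (adjusted p = 0.0468 and 0.0443). For TCP1 and CCT4 the call ended when any single library but DMSO replicate 3 was left out (adjusted p up to 0.158 and 0.162). They also lost it with no filter on low values (adjusted p = 0.0649 and 0.0513), with equal FPKM sums (0.212 and 0.257) and with quantile normalization (0.120 and 0.169). CCT5 lost its call with equal FPKM sums (adjusted p = 0.0818), and CCT4 with limma-voom (0.0524). The calls of CCT5 and CCT7 were lost without any one corilagin library or DMSO replicate 2 (up to 0.101 and 0.0734). An antisense gene covers 30.1% of the exon bases of CCT5.

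CCT2 was at 62.99, 63.3 and 64.7 under corilagin against 66.6, 70.8 and 84.6 FPKM in DMSO. Its groups did not overlap, but it did not pass as deposited (log2 difference -0.21, adjusted p = 0.148). CCT6A was at 68.8 ± 2.47 (SD) under corilagin against 80.4 ± 15.5 FPKM in DMSO (adjusted p = 0.250). CCT8 (ENSG00000156261, chromosome 21, 29055805 to 29073797, minus strand) went the other way: 143, 148 and 152 after corilagin, all above 89.4, 100.5 and 134 FPKM in DMSO. Its log2 difference was 0.47 as deposited (SE 0.144, limma adjusted p = 0.0509), 0.26 after GC adjustment (adjusted p = 0.0149) and 0.14 against DMSO replicate 3 (adjusted p = 0.0292). The call after GC adjustment was lost without corilagin replicate 2 or 3 or DMSO replicate 2 (adjusted p up to 0.0607). CCT8 was the most abundant subunit in every corilagin library and in DMSO replicate 3, and CCT7 in DMSO replicates 1 and 2. TCP1 was the least abundant and CCT2 the next in all 6 libraries.

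The subunit transcripts were less even after corilagin, though DMSO replicate 1 came close to the corilagin libraries. The coefficient of variation over the 8 genes was 35.5, 36.98 and 36.5 in the corilagin libraries and 34.6, 29.7 and 18.4 in the DMSO libraries (%), and DMSO replicate 3 had the most even ring (exact 2-sided permutation p = 0.1). The ratio of CCT8 to CCT3 was 1.95, 2.03 and 2.04 in the corilagin libraries and 0.699, 0.785 and 1.27 in the DMSO libraries. CCT8 lay above DMSO in every corilagin library and CCT3 below it. The order of the libraries in this ratio was thus fixed by those values and is no further test.

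**Figure D4:**
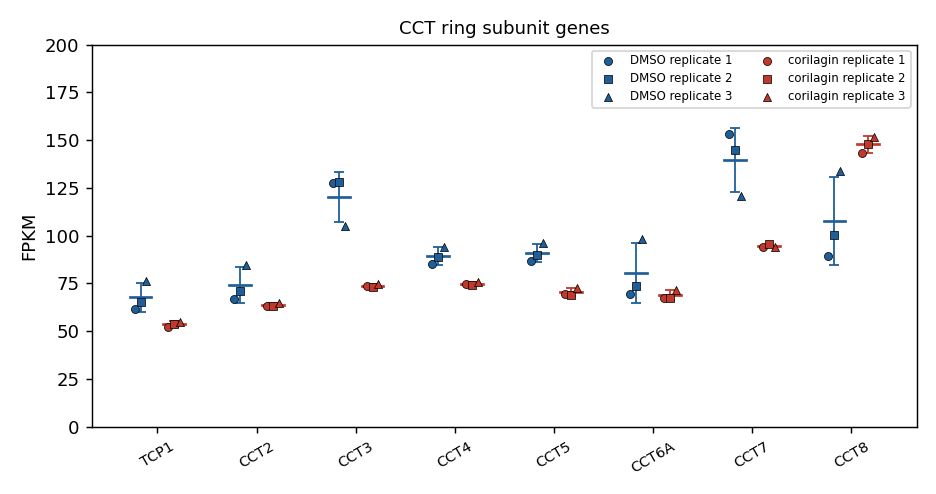
FPKM of the 8 CCT subunit genes on a linear axis from 0, one point per library, with lines at the group means and bars of ± 1 SD (n = 3). Blue is DMSO, red is corilagin. The red points lie below the blue ones for TCP1, CCT2, CCT3, CCT4, CCT5 and CCT7, overlap the lowest DMSO library for CCT6A, and lie above them for CCT8.

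All 4 mitochondrial chaperone genes had lower means after corilagin. For comparison, 13.5% of all genes were called lower as deposited and 23.2% after GC adjustment. As deposited, TRAP1 and HSPE1 passed (2 of 4, median -0.46), and after GC adjustment or against DMSO replicate 3 all 4 did (medians -0.51 and -0.66). TRAP1, the mitochondrial HSP90 (ENSG00000126602, chromosome 16, 3651639 to 3717597, minus strand), was at 9.55, 8.65 and 8.81 under corilagin against 19.5, 20.6 and 15.04 FPKM in DMSO, apart in every library. It fell to 0.490 of DMSO (log2 difference -0.94, SE 0.125, limma adjusted p = 0.00508, -0.80 after GC adjustment). Of its exon bases, 29.3% overlap DNASE1 on the opposite strand. HSPD1, the HSP60 chaperonin, was at 81.3, 82.1 and 86.4 under corilagin against 84.8, 93.3 and 129 FPKM in DMSO. The lowest DMSO library fell within the corilagin range (log2 difference -0.27, adjusted p = 0.191), while after GC adjustment it was lower (-0.43, adjusted p = 0.00686).

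HSPE1, the HSP10 lid of HSP60, starts beside HSPD1 on the opposite strand of chromosome 2. It was at 3.68, 3.62 and 3.24 under corilagin against 5.66, 5.60 and 6.91 FPKM in DMSO (-0.64, limma adjusted p = 0.00863), a call lost without any one corilagin library (adjusted p up to 0.0573). The level is uncertain. Of the HSPE1 exon bases, 9.71% are shared with HSPE1-MOB4 on the same strand and 14.2% with HSPD1 on the opposite strand. HSPE1 also has 26 annotated pseudogenes, which can share its reads, and only 108 to 224 fragments were counted. HSPD1 and HSPA8 have 17 each, DNAJA1 6, and FKBP4 and PTGES3 5 each. HSPA9, or mortalin, the HSP70 that pulls proteins into the matrix, was at 47.4, 47.3 and 47.7 under corilagin against 46.3, 51.5 and 59.05 FPKM in DMSO. It did not pass as deposited (-0.13, adjusted p = 0.329) and was lower after GC adjustment (-0.32, adjusted p = 0.00116).

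Side by side, the median log2 differences as deposited were -0.46 for the mitochondrial chaperones, -0.29 for the CCT ring, -0.26 for the heat-inducible chaperones, -0.24 for the HSP90 co-chaperones and -0.068 for the constitutive group. In the same order they were -0.51, -0.43, -0.23, -0.40 and -0.34 after GC adjustment. The group with the smallest fall was thus the constitutive one as deposited and the heat-inducible one after GC adjustment. Rescaling FPKM to equal library sums moved the median of all genes from 0.035 to 0.14. It also moved the share of higher genes among all calls from 46.8% to 60.5%, while 12 of the 39 genes were lower (10.7% of all genes) and none higher (16.4% of all genes). No difference between these groups of genes was tested. The 39 genes together made up 1.04 ± 0.0312% of the FPKM sum after corilagin and 1.22 ± 0.130% in DMSO (n = 3 per group, exact 2-sided permutation p = 0.1). HSP90AA1 and HSP90AB1 summed to 687, 696 and 729 in the corilagin libraries and 905, 934 and 1030.0 in the DMSO libraries (FPKM).

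GC content tracked the spread among the DMSO libraries for these genes as for the rest. Over the 39 genes, whose transcripts hold 34.6 to 65.8% GC, the Spearman correlation of GC content was -0.858 with DMSO replicate 3 minus the other DMSO libraries. It was 0.033 with corilagin minus DMSO replicate 3. With corilagin minus the DMSO mean, the comparison as deposited, it was -0.715, and -0.637 over all genes. The points share 6 libraries, and no p is given. The median of DMSO replicate 3 minus the other DMSO libraries was 0.12 log2 units over the 39 genes and -0.039 over all genes. For corilagin minus DMSO replicate 3 the median was -0.33 over the 39 genes and 0.0059 over all genes. HSP90AA1 and HSPH1 stood the highest of the 39 genes in DMSO replicate 3 relative to the other DMSO libraries (by 1.23 and 0.997 log2 units). Genes of similar GC content spread widely. Near HSP90AA1 the difference was 0.54 for HSPD1, 0.30 for CCT2 and 0.12 for CCT4 and CCT5. Near HSPH1 it was 0.61 for HSPA4, 0.55 for HSF2 and 0.26 for DNAJA2.

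**Figure D5:**
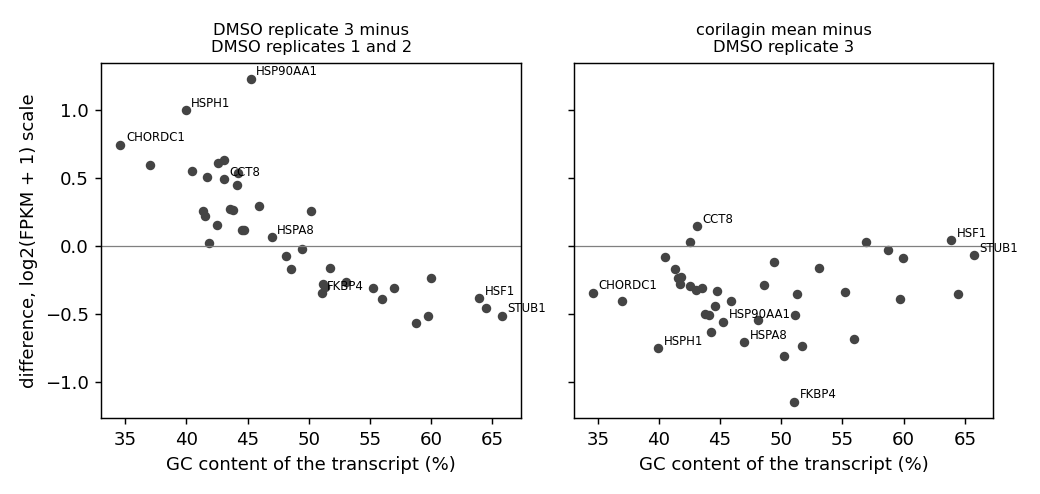
Each point is one of the 39 genes, placed by the GC content of its longest protein-coding transcript (%) and by a difference on the log2(FPKM + 1) scale. Left, DMSO replicate 3 minus the mean of DMSO replicates 1 and 2, which falls as GC content rises. Right, the corilagin mean minus DMSO replicate 3, where most genes lie below 0 at every GC content.

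Further genes of the folding pathways were read from lists set beside the 39 genes. Over all genes tested, 11.9% were higher and 13.5% lower as deposited, and 21.8% and 23.2% after GC adjustment. Of 9 further heat-inducible genes tested, none was higher or lower as deposited, and 1 was higher and 1 lower after GC adjustment. HSPA6, a strictly stress-induced HSP70, was under the filter of 1 FPKM, with CRYAB and HSPB8. Of 22 further HSP90 and HSP70 co-chaperones, 1 was higher and 6 were lower as deposited (1 and 10 after GC adjustment). DNAJB2, a J-domain protein that sends clients to the proteasome, rose 2.06-fold, from 2.07 ± 0.280 to 4.26 ± 0.161 FPKM (log2 difference 0.78, limma adjusted p = 0.00373). That call held whichever library was left out. RUVBL2, an ATPase of the R2TP complex that works with HSP90, fell to 0.545 of DMSO (limma adjusted p = 0.0121), and HSPBP1, an exchange factor of HSP70, to 0.601 (adjusted p = 0.0241).

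Prefoldin passes actin and tubulin chains to CCT. Of 11 prefoldin subunits and CCT partners, 1 was higher and 1 lower (1 and 3 after GC adjustment). PFDN6, a prefoldin subunit, fell to 0.656 of DMSO (limma adjusted p = 0.00801), and PDCL, a phosducin-like CCT cofactor, rose 1.32-fold (adjusted p = 0.0427), a call not made after GC adjustment (-0.015, adjusted p = 0.895). Of 11 further mitochondrial chaperones and proteases, 5 were lower and none higher (7 and 1 after GC adjustment). CLPP, the protease of the mitochondrial matrix, and CLPB, a mitochondrial disaggregase, fell to 0.600 and 0.598 of DMSO (limma adjusted p = 0.0225 and 0.0194). Among 13 kinases known as HSP90 clients, 2 were higher and 2 lower (4 and 4 after GC adjustment). As deposited these kinase counts were near the shares over all genes, 11.9% higher and 13.5% lower, so the kinases below are single genes. FLT3, the mutant receptor of this line, rose 1.43-fold from 217 ± 39.4 to 311 ± 6.30 FPKM (log2 difference 0.53, limma adjusted p = 0.0273, 0.32 after GC adjustment), and BRAF rose 1.65-fold (adjusted p = 0.0341). The Src-family kinase FGR fell to 0.455 of DMSO and the cell cycle kinase CDK4 to 0.591 (limma adjusted p = 0.00250 and 0.00801). Except for DNAJB2 and FGR, each of these calls was lost without any one corilagin library. PDCL, HSPBP1, CLPP, CLPB, BRAF and FLT3 also lost theirs without DMSO replicate 1 or DMSO replicate 2, and RUVBL2 without DMSO replicate 2. Over all these fits the adjusted p reached 0.161, for PDCL without DMSO replicate 2. With no filter on low values PDCL, BRAF and FLT3 did not pass (adjusted p = 0.0630, 0.0643 and 0.0504), and against DMSO replicate 3 alone PDCL and BRAF did not (0.0513 and 0.0665). All but PDCL were called after GC adjustment, in the same direction, though that of BRAF held only without DMSO replicate 3 when 1 library was left out.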

How the data were processed

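RNA-seq libraries of MV411 cells, 3 with corilagin and 3 with DMSO, were made from poly(A) RNA with 15 PCR cycles and sequenced as 150-base pairs, per the labels' protocols. The authors deposited 1 table of FPKM values per gene. The submitters' processing notes name fastp 0.22.0, HISAT2 2.1.0, HTSeq 0.9.1, DESeq 1.38.3 and GRCh38, and no source used here states how strand was handled.

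From the deposited FPKM, log2(FPKM + 1) was fitted with limma 3.58.1 (2-sided moderated test with a mean trend) over the 9868 genes whose mean FPKM reached 1, with Benjamini-Hochberg adjustment over all of them and a threshold of 0.05. Fold changes on this scale understate low genes. The GC content of each gene's transcript and its coordinates came from GENCODE 29, and the GC trend was a natural spline with 5 degrees of freedom per library over 9859 genes. Of the values, 100% came within 0.01 of a whole multiple of their gene's step, so fragments were recovered for limma-voom. Ratios and sums were taken from the FPKM as deposited, without GC adjustment, and compared by exact 2-sided permutation tests. On simulated data of 9868 genes for this comparison, limma recovered 89 of the 100 that were set to change 1.5-fold and all 100 set to change 2-fold, with 16 false calls. With a GC trend in DMSO replicates 1 and 2 these were 65, 100 and 81, and 85, 100 and 12 once it was removed. Alternatives were 18 settings, with 6 added after seeing the data.

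The 39 genes and the lists beside them were chosen with earlier results of these data known. All 39 are named, and from each further list up to 2 rises and 2 falls with the largest log2 difference past the threshold. Some marker results are not reported here.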

Additional observations from a re-analysis of the deposited data

How the results depend on the processing

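Removing the GC trend gave 2151 genes higher and 2287 lower over all genes, 1 and 27 among the listed genes, and turned the sign for HSF1 (0.020), HSF2 (-0.051), DNAJA1 (-0.22), HSPA4 (-0.13), HSPA14 (-0.11), DNAJA2 (-0.30), CHORDC1 (-0.41), PPID (-0.11) and PDCL (-0.015). The medians became -0.34 for the constitutive genes, -0.40 for the co-chaperones and -0.43 for the CCT ring. Against DMSO replicate 3 there were 1916 genes higher over all genes, 1 and 30 among the listed genes, medians of -0.31, -0.42 and -0.66 for the constitutive, CCT and mitochondrial genes, and turned signs for HSF1 (0.042), HSF2 (-0.079), HSP90AA1 (-0.56), DNAJA1 (-0.28), BAG3 (0.032), HSPA4 (-0.29), HSPA14 (-0.32), DNAJA2 (-0.17) and CHORDC1 (-0.35). Equal FPKM sums gave medians of -0.14 for the heat-inducible genes and -0.12 for the co-chaperones, and turned HSPH1 (0.028), BAG2 (0.092) and FKBP5 (0.031). A mean of at least 5 FPKM left 713 genes higher, with fewer genes tested, and a co-chaperone median of -0.33. PTGES3 was called lower there (adjusted p = 0.0474) and with median-of-ratios scaling (0.0364), where PDCL was not called (0.0551), nor with quantile normalization (0.0507). Quantile normalization gave -0.15 for the co-chaperone median and called 1 listed gene higher (CCT8; 10.4% of all genes), as limma-voom did. Signs near 0 also turned for BAG2 with a pseudocount of 0.1 (0.00080) and limma-voom (0.0070), and for DNAJA2 with median-of-ratios scaling (-0.044). Apart from the GC adjustment and the choice of libraries, whose construction is described above, the cause of these shifts was not tested.

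Leaving out 1 library at a time gave 131 to 4030 genes higher and 176 to 3597 lower over all genes, and 0 to 9 higher and 6 to 24 lower among the listed genes. The upper ends came without DMSO replicate 3. Group medians ranged over -0.35 to -0.23 (heat-inducible), -0.12 to -0.025 (constitutive), -0.32 to -0.21 (co-chaperones), -0.35 to -0.22 (CCT ring) and -0.54 to -0.33 (mitochondrial). Log2 differences that changed sign ranged over -0.011 to 0.67 for HSP90AA1, -0.27 to 0.24 for HSPH1, -0.061 to 0.23 for DNAJA1, -0.029 to 0.31 for HSPA4, -0.075 to 0.31 for HSPA14, -0.057 to 0.088 for DNAJA2 and -0.12 to 0.19 for BAG2. In 6 further fits added after seeing the data, the GC trend was removed and corilagin replicates 1, 2 and 3 and DMSO replicates 1, 2 and 3 were left out in turn: 25, 25, 27, 27, 26 and 29 listed genes were lower (of all genes 16.5%, 16.5%, 16.8%, 18.7%, 16.6% and 33.1%), and 1, 0, 0, 1, 0 and 2 higher (14.5%, 14.4%, 14.6%, 17.1%, 14.7% and 31.5%).

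The replicate numbers were not shown to pair the libraries: deviations from the group means correlated at 0.28, 0.0787 and 0.339 for the same numbers, and 5 of 6 libraries correlated best with their own number, DMSO replicate 2 being the exception. With the replicate block, 1547 genes were higher and 1330 lower over all genes, and 1 (CCT8) and 14 among the listed genes (15.7% and 13.5% of all genes), with DNAJB1 and CCT4 not called (adjusted p = 0.0520 and 0.0702). With the replicate block and the GC trend removed together the counts were 2154 and 2237, and 1 and 27 (21.8% and 22.7% of all genes), with BRAF not called (adjusted p = 0.0675) and the same medians (-0.34, -0.40 and -0.43) and the same turned signs as without the block.

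Depth limited HSPE1 the most, with 108 to 224 fragments. With 3 libraries a group, an exact permutation test cannot go below 0.1.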
